A study of Mus musculus with 19 samples.

Results

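The genes described here encode the proteasome, and they were taken by name from the gene table of the study: every protein-coding gene whose symbol starts with Psma, Psmb, Psmc, Psmd, Psme, Psmf or Psmg followed by a digit. The rule found 47 of the 12629 genes with a value. Of these, 46 are proteasome genes, namely 7 alpha and 7 beta subunits of the 20S core, 3 catalytic beta subunits of the immunoproteasome, 6 ATPase and 11 non-ATPase subunits of the 19S regulatory particle, 3 chaperones of 19S assembly, 4 chaperones of 20S assembly, and 5 other activators and inhibitors. The remaining gene, Psmc3ip, shares the letters only: it encodes a partner of the meiotic recombinases and is counted among the 47 but in none of the classes. Psma8, Psmb11 and Psme2b, which belong to the testis, the thymus and an activator copy, had no row in the table.

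The proteasome is the protease that degrades proteins tagged with ubiquitin, in the cytosol and nucleus of every cell. Its barrel-shaped core holds the cutting sites inside, and a regulatory particle at the end of the barrel binds the ubiquitin chain, unfolds the substrate with a ring of ATPases and feeds it in. Cells exposed to interferons, and immune cells at rest, replace the catalytic core subunits with the immunoproteasome forms, which favour peptides for MHC class I. In neurons, proteasomes are carried along axons, and local protein degradation has been studied in growth cones and injured axons.

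The measurements are RNA-seq profiles of GFP-positive sensory neurons sorted from adult dorsal root ganglia (DRGs), taken 8 weeks after left cervical ganglia had received viral vectors. In the GFP groups the vector was AAV5-fGFP, driven by the CMV promoter. In the α9k1 groups it was AAV5-α9-V5, driven by the CAG promoter, together with AAV5-kindlin1-GFP, driven by CMV: this pair expresses an integrin subunit and an integrin activator, so the sort selects cells by the GFP of the kindlin vector and not by α9. A dorsal root crush at the time of injection was made in GFP-crush (4 libraries) and α9k1-crush (4 libraries) and left out in GFP-naive (5 libraries) and α9k1-naive (6 libraries). All groups therefore carry an AAV5 vector, and none is uninjected. The sample labels name C57BL/6 mice and papain, whereas the methods of the study name male Lewis rats, trypsin and collagenase; values were made against the mouse genome in either case. The labels do not say which libraries came from separate animals, so p-values measure the spread between these libraries.

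The libraries held 36387140 to 87576777 read pairs, with 47.5% to 54.1% of reads aligned and 3.87% to 4.05% of aligned bases mismatched. Fermt1, which encodes kindlin-1, lay between 0.42 and 0.80 on the log2 scale in all GFP libraries and between 5.18 and 7.73 in all α9k1 libraries. Itga9, which encodes α9, lay between 2.38 and 5.16 in α9k1-naive, so that its lowest library reached the GFP-naive range of 1.77 to 2.40, and between 5.53 and 7.51 in α9k1-crush. Of the marker lists, all 20 sensory neuron genes and all 13 genes of satellite glia and Schwann cells had values. Of the macrophage genes 12 of 15 had values (Cx3cr1, Itgam and Mrc1 did not), and of the B and T lymphocyte genes only Igkc of 9 did. All values below are log2 levels after the authors' normalisation, which adjusts for gene length and depth. Values are compared within a gene. A log2FC is the difference between groups in one limma fit over all genes and libraries with 3 covariates of library quality, and a gene was called where its adjusted p was under 0.1. A group is said not to overlap another where all its libraries lie on one side of all libraries of the other.

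Both immunoproteasome genes with the largest changes, Psmb8 and Psmb9, lie in the MHC class II region of chromosome 17, with the peptide transporter genes Tap1 and Tap2. In the coordinates of the deposited gene table (GRCm38), Psmb9 (ENSMUSG00000096727) spans chr17:34181988-34187764 on the minus strand and Psmb8 (ENSMUSG00000024338) spans chr17:34197721-34201454 on the plus strand, with 9956 bases between them. Tap1 (chr17:34187553-34197225, plus strand) fills that gap, and its first bases overlap those of Psmb9 by 212. Psmb10 (ENSMUSG00000031897) stands alone at chr8:105935728-105938392 on the minus strand. The activator genes Psme1 and Psme2 are also neighbours, 5911 bases apart on chromosome 14. The 47 genes lie on 16 chromosomes. Because SMART-Seq reads carry no strand, reads from the shared stretch of Psmb9 and Tap1 cannot be told apart.

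The RefSeq table of promoters (GRCm38.p6, 250 bases before to 50 after the start) held 43 promoters of 40 of the 47 genes. It had no entry for Psmb1, Psmb2, Psmb7, Psmc3, Psmd3, Psmd7 and Psmg2. Windows of 3 genes are shown because these genes stand for the immunoproteasome, its activator and the constitutive core. Capitals mark matches, on either strand, to motifs of factors known to act on proteasome genes: the core of the interferon-stimulated response element, the core of the antioxidant response element bound by NRF1 and NRF2 (TGACNNNGC), and the CCAAT box bound by NF-Y (CCAAT). No marked match overlaps another.
Psmb9, chr17:34187281-34187580, minus strand: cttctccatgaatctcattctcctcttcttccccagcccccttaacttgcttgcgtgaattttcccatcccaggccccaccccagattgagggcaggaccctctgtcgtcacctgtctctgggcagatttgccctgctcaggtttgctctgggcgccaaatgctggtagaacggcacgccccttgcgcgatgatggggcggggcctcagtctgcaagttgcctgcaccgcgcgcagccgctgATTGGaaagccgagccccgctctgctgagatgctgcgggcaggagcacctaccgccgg
Psme1, chr14:55578244-55578543, plus strand: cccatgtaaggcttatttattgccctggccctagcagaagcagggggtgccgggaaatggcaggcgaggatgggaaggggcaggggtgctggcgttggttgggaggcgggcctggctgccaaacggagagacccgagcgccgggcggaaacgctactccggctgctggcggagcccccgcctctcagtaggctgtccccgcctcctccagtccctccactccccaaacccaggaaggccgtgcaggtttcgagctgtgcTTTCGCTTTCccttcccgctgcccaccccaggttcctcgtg
Psmb6, chr11:70525107-70525406, plus strand: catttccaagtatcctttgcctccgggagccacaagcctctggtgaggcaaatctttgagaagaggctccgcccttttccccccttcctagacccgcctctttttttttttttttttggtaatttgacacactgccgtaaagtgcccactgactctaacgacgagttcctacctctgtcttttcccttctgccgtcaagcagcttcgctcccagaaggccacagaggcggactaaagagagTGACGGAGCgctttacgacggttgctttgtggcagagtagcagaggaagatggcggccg

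The Psme1 window held the interferon-stimulated core at base 260, on the other strand, and that core was present in 5 of the 43 promoters (11.6%; Psmb3, Psmd4, Psmd9, Psme1 and Psmg4) and in 3.4% of all 32851 promoters in the table. The Psmb6 window held the antioxidant response core at base 242 (TGACGGAGC), a motif of 6 of the 43 promoters (14%; Psmb5, Psmb6, Psmc6, Psmd12, Psmd9 and Psme4) against 12.4% of all. The CCAAT box, at base 243 of the Psmb9 window, was present in 14 of the 43 promoters (32.6%) and in 37.4% of all. The Psmb8 and Psmb10 windows held none of these motifs. A match in such a window is a description of its letters and not a site of binding.

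The immunoproteasome genes rose in both comparisons with GFP-naive. After crush alone (GFP-crush against GFP-naive), Psmb8, Psmb9 and Psmb10 were all called higher, and Psmb8 had the largest log2FC of the 47 genes, 1.42. With α9 and kindlin-1 but no crush (α9k1-naive against GFP-naive), all 3 were called higher as well, with log2FCs of 0.95, 0.93 and 0.37. In neurons with both treatments, the deposited levels of Psmb8 and Psmb9 were below those of GFP-crush (fitted log2FCs of -0.39 and -0.21, not called), and for both genes the difference between the α9k1 effects with and without crush was called.

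Psmb8 encodes β5i, the immunoproteasome subunit with chymotrypsin-like activity. Its log2 level was 4.95, 4.94, 4.89, 5.19 and 5.24 in the GFP-naive libraries and 6.58, 6.12, 6.37 and 6.60 in GFP-crush. In α9k1-naive it ran from 5.90 (median 5.96) to 6.18, and in α9k1-crush it was 5.77, 5.86, 5.90 and 5.76. GFP-naive was thus the lowest group and GFP-crush lay above all GFP-naive and all α9k1-crush libraries, while α9k1-crush overlapped the bottom of α9k1-naive. The log2FC of GFP-crush against GFP-naive was 1.42 ± 0.13 (SE; limma, adjusted p = 1.74e-05), a 2.68-fold increase. That of α9k1-naive against GFP-naive was 0.95 ± 0.13 (limma, adjusted p = 9.84e-05), a 1.93-fold increase. The interaction, which is the log2FC of α9k1 with crush less the log2FC of α9k1 in naive animals, was -1.34 ± 0.26 (limma, adjusted p = 0.0272). The 2 comparisons with GFP-naive share those 5 libraries.

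Psmb9 encodes β1i, which replaces the caspase-like site. Its level was 5.05, 5.37, 5.25, 5.16 and 5.25 in GFP-naive and 6.54, 6.46, 6.78 and 6.44 in GFP-crush, with no overlap. In α9k1-naive it ran from 5.72 (median 6.04) to 6.27, and in α9k1-crush it was 5.52, 5.92, 5.66 and 5.80. Here too every α9k1-crush library lay below every GFP-crush library and above every GFP-naive library. The log2FC was 1.26 ± 0.14 (SE; adjusted p = 9.71e-05) for GFP-crush and 0.93 ± 0.14 (adjusted p = 0.000287) for α9k1-naive, each against GFP-naive. The interaction was -1.13 ± 0.29 (limma, adjusted p = 0.0832). This last call depended on single libraries: without any of 9 of the 19 libraries in turn (GFP-naive replicates 1, 3, 4 and 5, α9k1-naive replicate 3, GFP-crush replicates 2 and 3, α9k1-crush replicates 1 and 4) it was not made, and 1 of the 47 genes, Psmb8, was called for the interaction instead of 2. The background for the interaction was 0.847% of all genes called lower and 1.35% called higher.

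Psmb10, which encodes β2i with trypsin-like activity, moved less. It measured 6.56, 6.30, 6.40, 6.60 and 6.64 in GFP-naive, 6.96, 6.71, 6.78 and 6.86 in GFP-crush, and 6.69 to 6.99 (median 6.80) in α9k1-naive. In α9k1-crush it was 6.44, 6.87, 6.90 and 6.86, with replicate 1 inside the GFP-naive range and the other 3 above it. The log2FC was 0.37 ± 0.13 in both comparisons with GFP-naive (adjusted p = 0.0662 after crush and 0.0543 for α9k1-naive), and the interaction was -0.27 (95% interval -0.84 to 0.30).

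**Figure D1:**
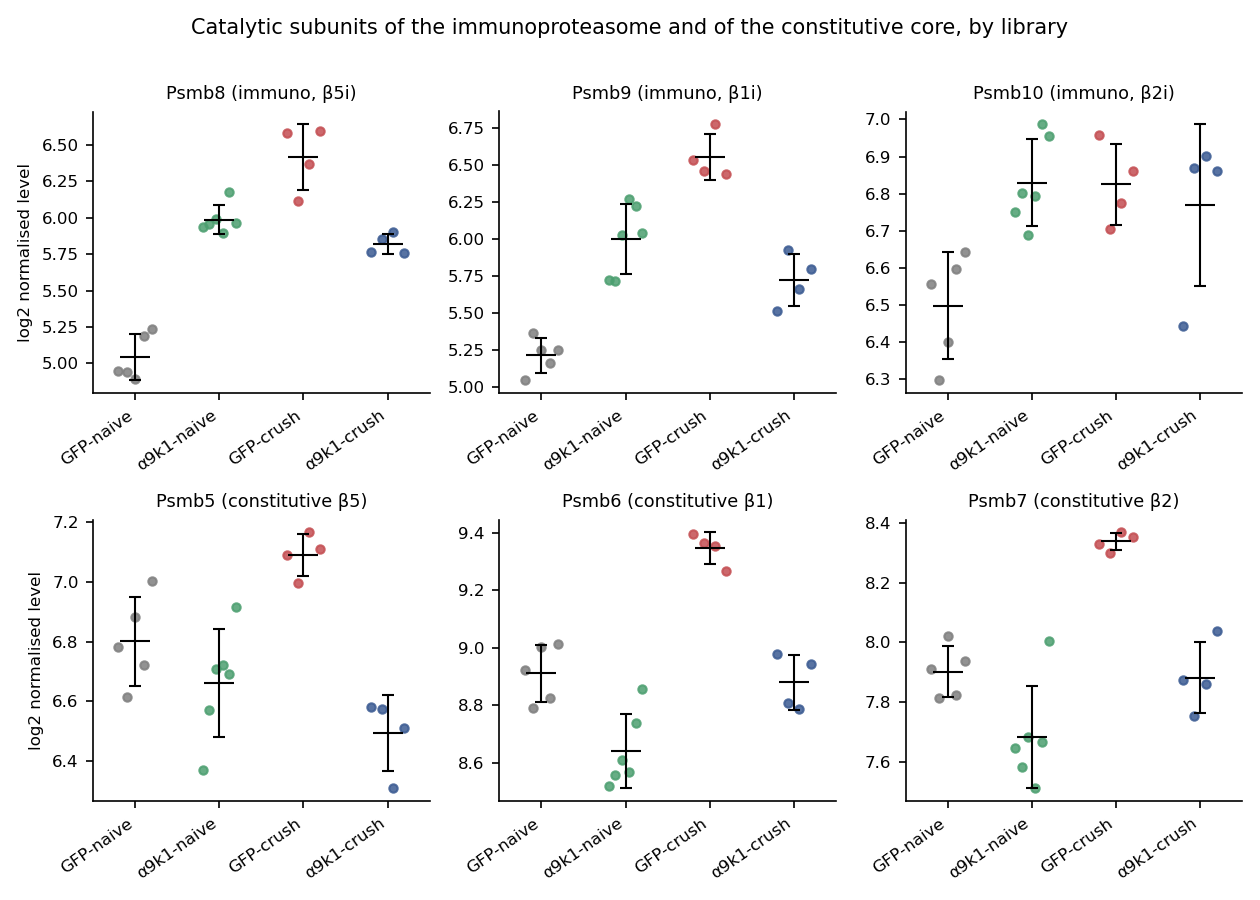
Log2 normalised level (y axis) of the 3 catalytic immunoproteasome genes (top) and their 3 constitutive counterparts (bottom) in each library, by group; points are libraries, horizontal bars are group means and whiskers are 1 SD; the y axes differ between genes and do not start at 0. Psmb8 and Psmb9 are lowest in the 5 GFP-naive libraries, and their mean is highest in GFP-crush, where 1 library of Psmb8 (6.12) lies below the highest of α9k1-naive (6.18); Psmb5, Psmb6 and Psmb7 are higher in GFP-crush than in α9k1-crush with no overlap.

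Other genes of MHC class I presentation and interferon response were read beside them. Tap1, the transporter subunit next to Psmb9, was higher by 1.28 in GFP-crush (adjusted p = 0.000133) and by 1.96 in α9k1-naive (2.57e-07), and its interaction was -1.26 (0.0672). Of 12 listed genes of MHC class I presentation, 10 had values. After crush 4 were called higher and 2 lower (Canx, -0.54, and Calr, -0.29). In α9k1-naive 4 were called higher and 1 lower (Pdia3, -0.31). Over all genes 7.39% were called higher and 15.7% lower after crush, and 11.4% and 17.6% in α9k1-naive. Interferon response genes gave other counts, and the 2 comparisons were not tested against each other. Of 16 with values, 15 were called higher in α9k1-naive, led by Ifit3 (4.54) and Rsad2 (4.02). In GFP-crush only 3 were called higher, led by Gbp2 (1.74) and Igtp (0.97), while 5 were called lower, led by Ifit3 (-1.31) and Irf1 (-1.0), which encodes a factor known to act on the Psmb9 and Tap1 promoters. In GFP-crush, the group with the highest Psmb8 and Psmb9, Irf1 was 5.67 to 5.93, below the 6.56 to 6.97 of GFP-naive. In α9k1-naive, where Psmb8 and Psmb9 were called higher than in GFP-naive, Irf1 was 9.27 to 9.63. In α9k1-crush Irf1 was 8.09 to 8.31, and the deposited levels of Psmb8 and Psmb9 were below GFP-crush. Against α9k1-naive 7 of the 16 interferon response genes were called lower in α9k1-crush (5.27% of all genes). Against GFP-crush 6 were called higher (0.728%), and in the interaction 2 were called lower (0.847%). The part of Irf1 and of interferon in the levels of Psmb8 and Psmb9 was not tested.

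Macrophage markers moved with Psmb8 and Psmb9 in the comparisons with GFP-naive. Of the 12 with values, 9 were called higher in GFP-crush (median log2FC 1.5) and 9 in α9k1-naive (median 1.13), each against GFP-naive. Over all genes 7.39% and 11.4% were called higher in these comparisons. Their summed log2 level was 9.12 to 9.71 in GFP-naive, 10.7 to 11.2 in α9k1-naive, 11.3 to 11.9 in GFP-crush and 10.9 to 11.6 in α9k1-crush. For the interaction, 10 of the 12 had a log2FC below 0 (median -0.70), and Cd74 was called lower (-2.0, adjusted p = 0.0459). In the deposited values, 8 of the 12 had a lower mean in α9k1-crush than in GFP-crush and 2 of the 12 a lower mean than in α9k1-naive, and both Psmb8 and Psmb9 had lower means than in either group. In the fit, the median log2FC of the markers was 0.60 against GFP-crush (none called) and 0.79 against α9k1-naive (2 called higher). The fitted values of Psmb8 were -0.39 and 0.08, and those of Psmb9 were -0.21 and 0.13, none of them called. Macrophages express immunoproteasome genes at a high level, and the part of these cells, or of their RNA, in the levels of Psmb8, Psmb9 and Psmb10 was not tested. Igkc, the only lymphocyte marker with values, was called lower in GFP-crush (log2FC -3.19) and in α9k1-naive (-4.6), each against GFP-naive. The part of lymphocytes was not tested either. In sorted bulk samples, more cells of a type and more RNA per cell cannot be told apart.

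After dorsal root crush alone, the rise was not limited to the immunoproteasome. Of the 47 genes, 16 were called higher in GFP-crush than in GFP-naive, against a background of 7.39% of all genes called higher, and none was called lower, against 15.7% of all genes. Of the 31 genes not called, 9 had an unadjusted p under 0.05. Without the immunoproteasome genes, the 13 called were core subunits Psma6, Psma7, Psmb6 and Psmb7, ATPases Psmc1, Psmc4, Psmc5 and Psmc6, non-ATPases Psmd6, Psmd12 and Psmd14, activator subunit Psme3 and inhibitor Psmf1. Markers of other cell types moved in the same comparison. Of 20 sensory neuron genes 7 were called higher and 3 lower, and their summed log2 level was 13.7 to 14.2 in GFP-naive and 14.2 to 14.5 in GFP-crush. Of 13 genes of satellite glia and Schwann cells 1 was called higher and 5 lower (15.8 to 16.2 against 15.2 to 15.5), and of 9 of 13 listed genes of endothelial cells and fibroblasts with values none was called higher and 5 lower (9.60 to 9.91 against 8.46 to 8.88). Apoe had the highest mean of the glial genes in GFP-naive (15.6) and in GFP-crush (14.7), so their summed level follows Apoe most. The part of these cell types in the levels of the 47 genes was not tested. In all, 44 of the 47 had a log2FC above 0 (5180 of 12629 over all genes), and the median was 0.21 against -0.08 over all genes. The 2 groups did not overlap in 26 of the 47 genes, all higher in GFP-crush, where 7.59% of all genes were higher and 12.2% lower without overlap. A scaling of each library to its median moved the median of all genes from -0.08 to 0.06, the background to 14.5% higher and 9.34% lower, and the count among the 47 to 32 higher. A fit of the 9 libraries of these groups alone left 3 calls of the 16 (Psmb8, Psmb9 and Psmf1), where 2.07% of all genes were called higher, with 42 of the 47 genes above 0. Leaving out GFP-naive replicate 2 or GFP-crush replicate 2 left 9 or 10 calls, where 3.52% or 4.14% of all genes were called higher.

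In the core, 2 of the 3 constitutive catalytic subunits were called higher. Psmb6, which encodes β1 with caspase-like activity, was 8.92, 8.79, 9.0, 8.83 and 9.01 in GFP-naive and 9.40, 9.36, 9.36 and 9.27 in GFP-crush. Psmb7, which encodes β2 with trypsin-like activity, was 7.91, 7.81, 8.02, 7.82 and 7.94 against 8.33, 8.30, 8.37 and 8.35. Neither gene overlapped between the groups, and the log2FCs were 0.34 ± 0.09 (adjusted p = 0.0226) and 0.30 ± 0.10 (adjusted p = 0.0502). Exons of Psmb7 overlap those of Nek6 on the other strand. Psmb5, which encodes β5 with chymotrypsin-like activity, was 6.78, 6.62, 6.88, 6.72 and 7.004 against 7.09, 6.998, 7.17 and 7.11. Its lowest GFP-crush library met the highest GFP-naive one, and its log2FC of 0.21 (95% interval 0.01 to 0.41) did not pass (limma, adjusted p = 0.139). The difference of its deposited means was 0.29 (2-sided exact permutation test, p = 0.0317, and 0.0488 adjusted over 60 tests).

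Of the 7 alpha subunits, which form the outer rings and the gate of the core, 2 were called. Psma6 was 8.78, 8.67, 8.70, 8.63 and 8.74 in GFP-naive and 9.01, 8.99, 9.06 and 9.09 in GFP-crush (log2FC 0.28 ± 0.09, adjusted p = 0.0513). Psma7 was 8.98, 8.96, 8.91, 8.92 and 9.05 against 9.33, 9.29, 9.35 and 9.21 (log2FC 0.25 ± 0.09, adjusted p = 0.0648). Neither gene overlapped between the groups, and the same held for Psma2 and Psma5, which were not called. Over the 14 core subunits, log2FCs ran from -0.06 to 0.34 with a median of 0.20. All 3 changes of immunoproteasome genes were larger than that range, at 0.37 to 1.42.

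The ATPase ring of the 19S particle was the class with the most calls after crush beside the immunoproteasome: 4 of 6, with all 6 above 0 and a median of 0.41. Psmc6 was 7.19, 7.27, 7.16, 7.14 and 7.32 in GFP-naive and 7.71, 7.78, 7.49 and 7.60 in GFP-crush. These groups did not overlap, and the log2FC was 0.41 ± 0.10 (adjusted p = 0.0184). Psmc1, Psmc5 and Psmc4 had log2FCs of 0.46, 0.45 and 0.41 (adjusted p = 0.0145, 0.0057 and 0.0202) and did not overlap either. Of the 11 non-ATPase subunits 3 were called. Psmd12, a lid subunit, was 7.42, 7.44, 7.48, 7.45 and 7.41 against 7.81, 7.83, 7.66 and 7.67 (log2FC 0.29 ± 0.09, adjusted p = 0.0524). Psmd6, another lid subunit, had a log2FC of 0.33 and Psmd14, the deubiquitinase of the lid, 0.31. The 19S base subunits Psmd1 and Psmd2, scaffolds that bind ubiquitin receptors, had 0.20 and 0.16 and were not called.

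**Figure D2:**
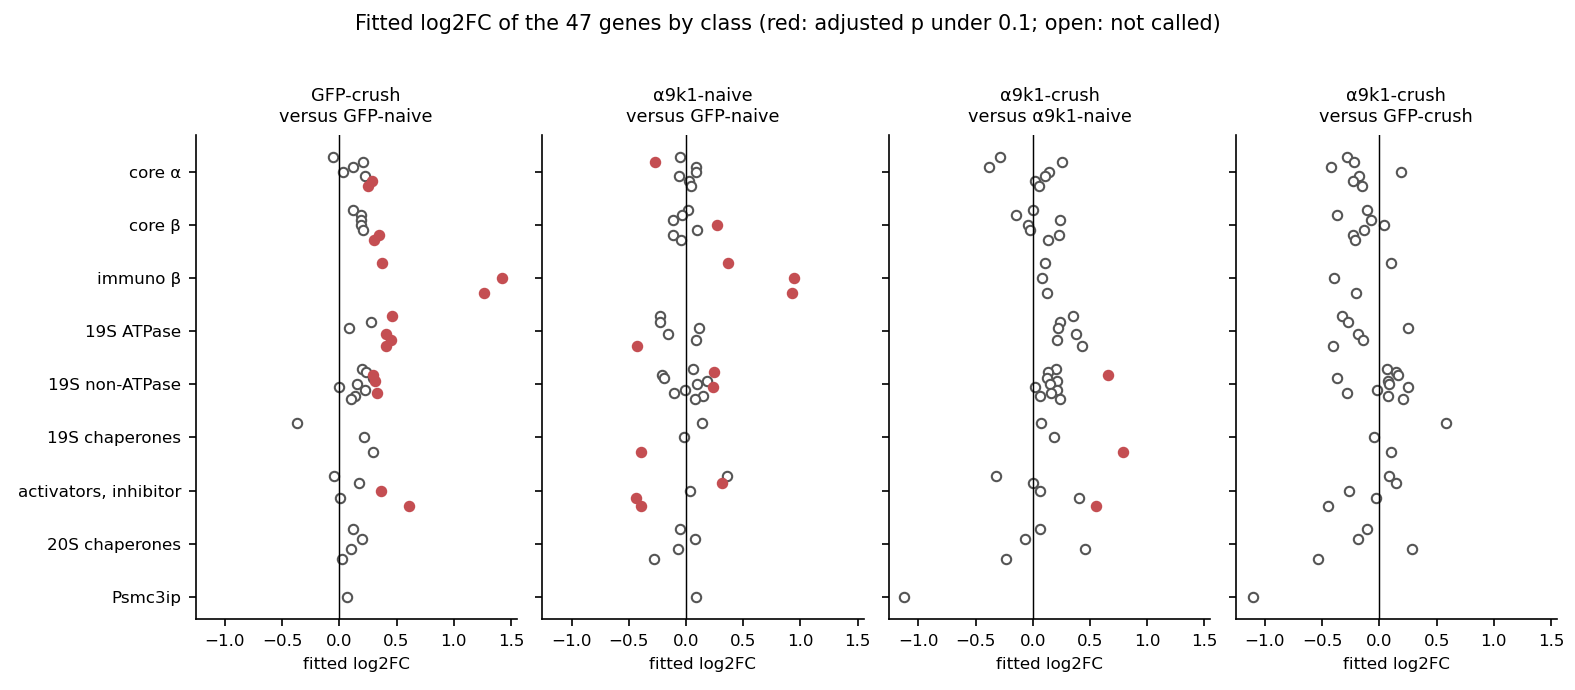
Fitted log2FC (x axis) of each of the 47 genes in 4 comparisons, by class (y axis); red points were called at an adjusted p under 0.1 and open points were not. In GFP-crush against GFP-naive 44 of 47 points lie right of 0 and 16 are red, and in α9k1-crush against GFP-crush none is red.

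Among the inhibitor and the activators, Psmf1 and Psme3 were called higher after crush with GFP, and in α9k1-naive against GFP-naive Psme2 was called higher and Psmf1 and Psme4 lower. Psmf1, which encodes PI31, an inhibitor of the core in vitro and an adaptor for the transport of proteasomes in axons, was the only gene called in 3 of the 4 comparisons of 2 groups. Its level was 7.47, 7.29, 7.35, 7.43 and 7.56 in GFP-naive, 7.90, 8.05, 7.69 and 7.97 in GFP-crush, 7.02 to 7.26 (median 7.14) in α9k1-naive, and 7.76, 7.63, 7.73 and 7.67 in α9k1-crush. Both crush groups lay above both naive groups, and α9k1-naive lay below GFP-naive, with no overlap in any of these comparisons. The log2FC was 0.61 ± 0.09 after crush with GFP (adjusted p = 0.000896), 0.55 ± 0.17 after crush with α9k1 (adjusted p = 0.0657) and -0.39 ± 0.09 for α9k1-naive against GFP-naive (adjusted p = 0.00751). The interaction was -0.06 (95% interval -0.46 to 0.35).

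Psme1 and Psme2 encode the subunits of the 11S activator PA28, which interferon induces together with the immunoproteasome. Psme1 was 7.28, 7.41, 7.81, 7.56 and 7.43 in GFP-naive, 7.30, 7.37, 7.80 and 7.68 in GFP-crush, 7.40 to 7.83 (median 7.63) in α9k1-naive and 6.56, 7.35, 6.55 and 6.81 in α9k1-crush. It was called in no comparison. The first 3 groups shared their range, and 3 of the 4 α9k1-crush libraries lay below all other libraries. Psme2 was 6.85, 6.82, 6.98, 6.71 and 6.96 in GFP-naive and 6.75 to 7.26 (median 7.0) in α9k1-naive. Its log2FC there was 0.31 ± 0.11 (adjusted p = 0.049), although the groups overlapped and the difference of the deposited means was 0.15 (2-sided exact permutation test, p = 0.177; 0.231 adjusted over 60 such tests). In GFP-crush Psme2 was 6.93, 6.93, 7.10 and 7.26 (log2FC 0.17, 95% interval -0.06 to 0.40), and in α9k1-crush it was 6.59, 6.79, 6.53 and 6.72.

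Psme3, the nuclear 11S activator PA28γ, was called higher after crush with GFP (0.36 ± 0.10, adjusted p = 0.0299). Psme4, which encodes the activator PA200, had the lowest mean level of the 47 genes in 3 of the 4 groups, with Psmc3ip lower in α9k1-crush. It was 3.34, 3.83, 3.31, 3.38 and 3.23 in GFP-naive, 2.66 to 3.17 (median 3.08) in α9k1-naive, 3.38, 3.58, 3.55 and 3.45 in GFP-crush and 3.46, 3.51, 3.69 and 3.60 in α9k1-crush. α9k1-naive was the low group, and the other 3 overlapped. The log2FC of α9k1-naive against GFP-naive was -0.43 ± 0.15 (adjusted p = 0.0461).

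**Figure D3:**
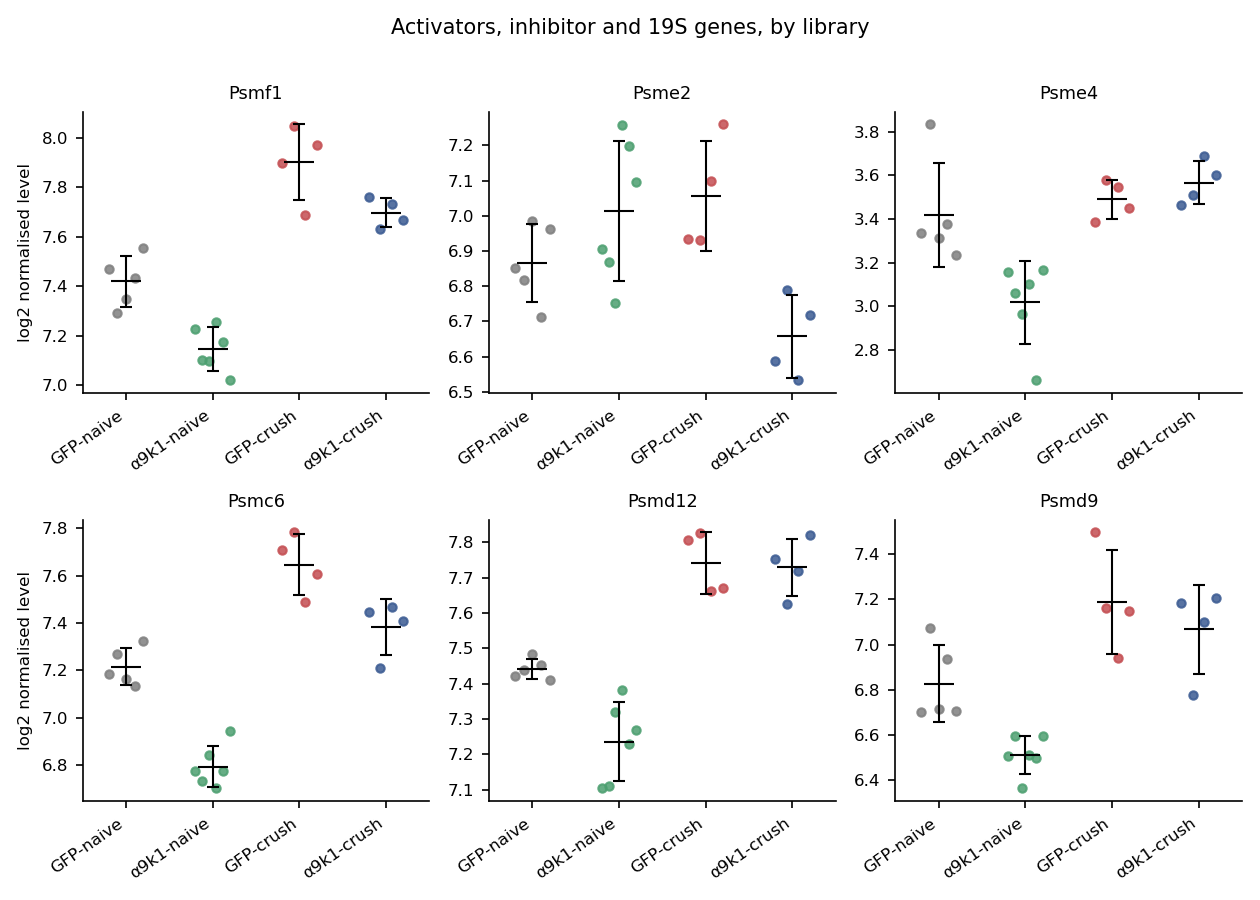
Log2 normalised level (y axis) of Psmf1, Psme2, Psme4, Psmc6, Psmd12 and Psmd9 in each library, by group; points are libraries, horizontal bars are group means and whiskers are 1 SD; the y axes differ between genes and do not start at 0. Psmf1 and Psmc6 are lowest in α9k1-naive, where all 6 libraries lie below all 5 GFP-naive libraries, and highest in GFP-crush.

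With α9 and kindlin-1 alone, calls among the 47 genes were made in both directions, and 35 genes were not called. In α9k1-naive against GFP-naive, 7 were called higher, against a background of 11.4%, and 5 lower, against 17.6%. The share of the 47 called in each direction was 14.9% and 10.6%. The median log2FC was 0.03 against -0.08 over all genes, and its sign was negative (-0.08) without the covariates. Groups did not overlap in 7 genes that were higher and 6 that were lower, where 8.43% and 13.2% of all genes were. Beside the 3 immunoproteasome genes and Psme2, those called higher were Psmb4 (0.27), a constitutive core subunit, and the 19S subunits Psmd11 (0.24) and Psmd3 (0.23). Leaving out GFP-naive replicate 2 or 4 left 3 of these 7 calls, and so did leaving out α9k1-naive replicate 6, with Psme1 called in addition, where 10.6%, 10.2% and 9.28% of all genes were called higher. Without the covariates 13 genes were called lower instead of 5, where 29.5% of all genes were, and in a fit of the 11 libraries of these groups alone 2 were, where 14% of all genes were.

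Markers of other cell types moved in this comparison too. All 9 genes of endothelial cells and fibroblasts with values were called lower (median log2FC -1.42), of the 13 of satellite glia and Schwann cells 3 were called higher and 7 lower (median -0.91), and of the 20 of sensory neurons 2 higher and 4 lower. Their part in the levels of the 47 genes was not tested.

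The 5 genes called lower were Psme4, Psmf1, Psmc6, Psmd9 and Psma2. Psmc6, an ATPase subunit, ran from 6.70 to 6.94 (median 6.77) in α9k1-naive, below all GFP-naive libraries, with a log2FC of -0.43 ± 0.10 (adjusted p = 0.00882). Psmd9, a chaperone that assembles the ATPase ring, was 6.70, 7.08, 6.72, 6.93 and 6.71 in GFP-naive and 6.36 to 6.60 (median 6.51) in α9k1-naive, with no overlap (log2FC -0.39 ± 0.13, adjusted p = 0.0365). Exons of Psmd9 overlap those of Gm26745 on the other strand. Psma2, a core subunit, had a log2FC of -0.27 ± 0.10 (adjusted p = 0.0526). Psmc6 and Psmf1 were thus called lower with α9k1 and higher with crush, in comparisons that share the GFP-naive libraries. Neither had an interaction that was called.

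The effect of crush in neurons with α9 and kindlin-1 was measured less precisely: the variance of this contrast was 2.123 times the residual variance, against 0.6621 for crush with GFP. The counts of the 2 comparisons were not tested against each other, and of the 47 genes only Psmb8 and Psmb9 had an interaction that was called. In α9k1-crush against α9k1-naive 3 of the 47 were called higher, against a background of 4.47%, and none lower, against 5.27%. The count without an adjustment was 5 genes with a p under 0.05. The median log2FC was 0.13 against 0.00 over all genes, and 38 of 47 genes were above 0. Psmd12 was 7.10 to 7.38 (median 7.25) in α9k1-naive and 7.75, 7.63, 7.72 and 7.82 in α9k1-crush (log2FC 0.66 ± 0.17, adjusted p = 0.0333). Psmd9 was 7.18, 6.78, 7.10 and 7.21 in α9k1-crush, above all 6 α9k1-naive libraries (log2FC 0.79 ± 0.23, adjusted p = 0.0553). The third was Psmf1, above. None of the 3 was called in a fit of the 10 libraries of these groups alone, where 0.507% of all genes were called higher. The count fell to 0 without α9k1-naive replicate 4 (2.17% of all genes) and to 1 without α9k1-naive replicate 1 or 3 (2.84% and 3.66%), while without the covariates it was 21 higher and 6 lower, where 28.5% and 27.1% of all genes were.

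In the deposited values, the genes that separated α9k1-crush from α9k1-naive were mostly 19S subunits. Of the 17 ATPase and non-ATPase subunits, 11 were higher in α9k1-crush with no overlap between the groups, and none was lower. Of the 14 constitutive core subunits none was separated in either direction. Over all 47 genes, 15 were higher and 2 lower without overlap, where 17.4% of all genes were higher and 16.1% lower. The mean level over the 17 subunits was 7.54 to 7.62 in α9k1-naive and 7.92, 7.76, 7.99 and 7.97 in α9k1-crush. Over the 14 core subunits it was 7.52 to 7.84 and 7.73, 7.60, 7.69 and 7.79, which overlap. In this comparison 5 of the 9 endothelial and fibroblast markers were called higher (median log2FC 1.54) and none lower, 6 of the 13 glial markers higher and 4 lower, and 4 of the 20 sensory neuron markers higher and 1 lower, and their part in these levels was not tested.

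Between the 2 crush groups no gene was called. In α9k1-crush against GFP-crush the counts were 0 higher and 0 lower by limma, against backgrounds of 0.728% and 0.182%, and 1 of the 47 genes, Psmf1, had an unadjusted p under 0.05 (log2FC -0.45, 95% interval -0.88 to -0.02). The covariates overlapped with these groups. With them the variance of this contrast was 3.111 times the residual variance and without them 0.5 times, so the median SE of the 47 genes was 0.22 here against 0.10 in the comparisons with GFP-naive. Without the covariates 5 of the 47 were called higher and 25 lower, where 29.6% and 28.3% of all genes were. Library quality and group therefore cannot be told apart for these 2 groups.

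In the deposited values, most core subunits were lower in α9k1-crush than GFP-crush, and the 19S subunits overlapped on average. The classes were not tested against each other. Of the 14 core subunits 10 were lower without overlap in α9k1-crush, and none was higher. Of the 17 subunits of the 19S particle 5 were higher (Psmc3, Psmd1, Psmd2, Psmd3 and Psmd11) and 2 lower (Psmc6 and Psmd7). Over the 47 genes, 20 were lower and 5 higher without overlap, where 20.8% and 20% of all genes were. The mean over the core was 8.05, 8.07, 8.09 and 7.99 in GFP-crush and 7.73, 7.60, 7.69 and 7.79 in α9k1-crush. The mean over the 19S subunits was 7.83, 7.91, 7.69 and 7.74 against 7.92, 7.76, 7.99 and 7.97, which overlap. With the covariates the medians of the fitted log2FC were -0.19 over the core and 0.06 over the 19S subunits, with no call in either. Of the 13 glial markers 12 had a lower deposited mean in α9k1-crush than in GFP-crush. In the fit none of them was called (median log2FC 0.10). Lower deposited means were also found for 6 of the 20 sensory neuron markers and 4 of the 9 endothelial and fibroblast markers. The part of these cells in the levels was not tested.

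Psmb5 was 7.09, 6.998, 7.17 and 7.11 in GFP-crush and 6.58, 6.58, 6.31 and 6.51 in α9k1-crush, a difference of means of -0.60 (2-sided exact permutation test, p = 0.0286, the lowest value possible with 4 against 4; 0.0463 adjusted over 60 tests). The fitted log2FC of Psmb5 was -0.13 (95% interval -0.56 to 0.30). Psmb6 and Psmb7 in α9k1-crush were 8.98, 8.81, 8.79 and 8.94, and 7.88, 7.75, 7.86 and 8.04, below all GFP-crush libraries, with differences of -0.47 and -0.46. Psmd2, by contrast, ran from 6.76 to 7.21 in GFP-crush and from 7.48 to 7.84 in α9k1-crush, a difference of 0.70, and Psmd1 from 7.52 to 7.95 and from 8.15 to 8.67, a difference of 0.66. Both also stood higher in α9k1-naive than in GFP-naive without overlap, and neither was called in the fit with covariates in any comparison. Reads of Psmd2 may be shared with Gm5422, a gene of the table with at least 95% identity over 300 bases.

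**Figure D4:**
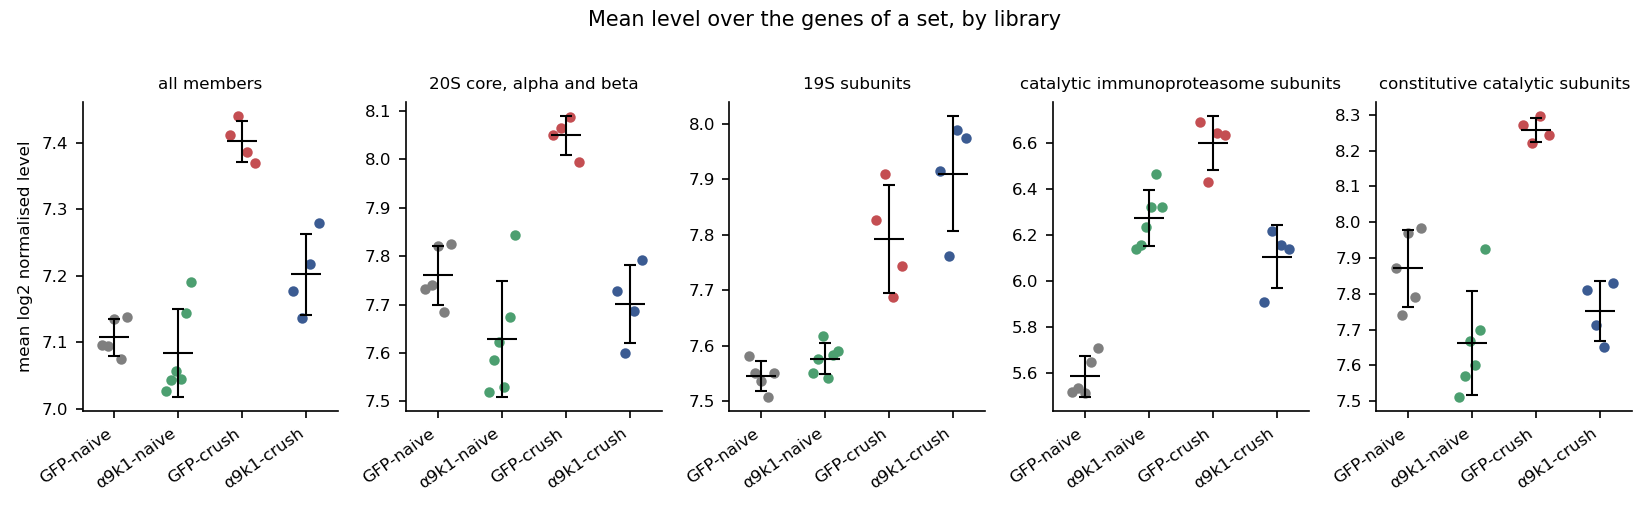
Mean log2 normalised level (y axis) over all 47 genes, the 14 core subunits, the 17 subunits of the 19S particle, the 3 catalytic immunoproteasome subunits and their 3 constitutive counterparts in each library, by group; points are libraries, horizontal bars are group means and whiskers are 1 SD; the y axes differ between sets and do not start at 0. The core is highest in the 4 GFP-crush libraries (7.99 to 8.09), the 19S particle is higher in both crush groups than in both naive groups, and α9k1-naive replicate 6 is the highest of its group in the core.

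The chaperones of 20S assembly (Psmg1 to Psmg4) gave no call in any of the 4 comparisons. Psmg4 had the largest differences of the deposited values among them: it ran from 6.27 to 6.80 in GFP-naive, 5.70 to 6.41 in α9k1-naive, 6.72 to 6.89 in GFP-crush and 5.18 to 5.89 in α9k1-crush. All α9k1-crush libraries lay below all GFP-crush libraries, and α9k1-naive replicate 6 overlapped GFP-naive replicate 2, but the fitted log2FCs were -0.28 and -0.54 and were not called. Of the 3 chaperones of 19S assembly only Psmd9 was called. Psmc3ip, which is no proteasome gene, ran from 2.69 to 3.46 in α9k1-crush and from 3.48 to 4.63 in the other groups, and was not called either (log2FC -1.13 ± 0.49 against α9k1-naive). Over the 4 comparisons 24 of the 47 genes were called in none, 16 in 1, 6 in 2 and 1, Psmf1, in 3.

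**Figure D5:**
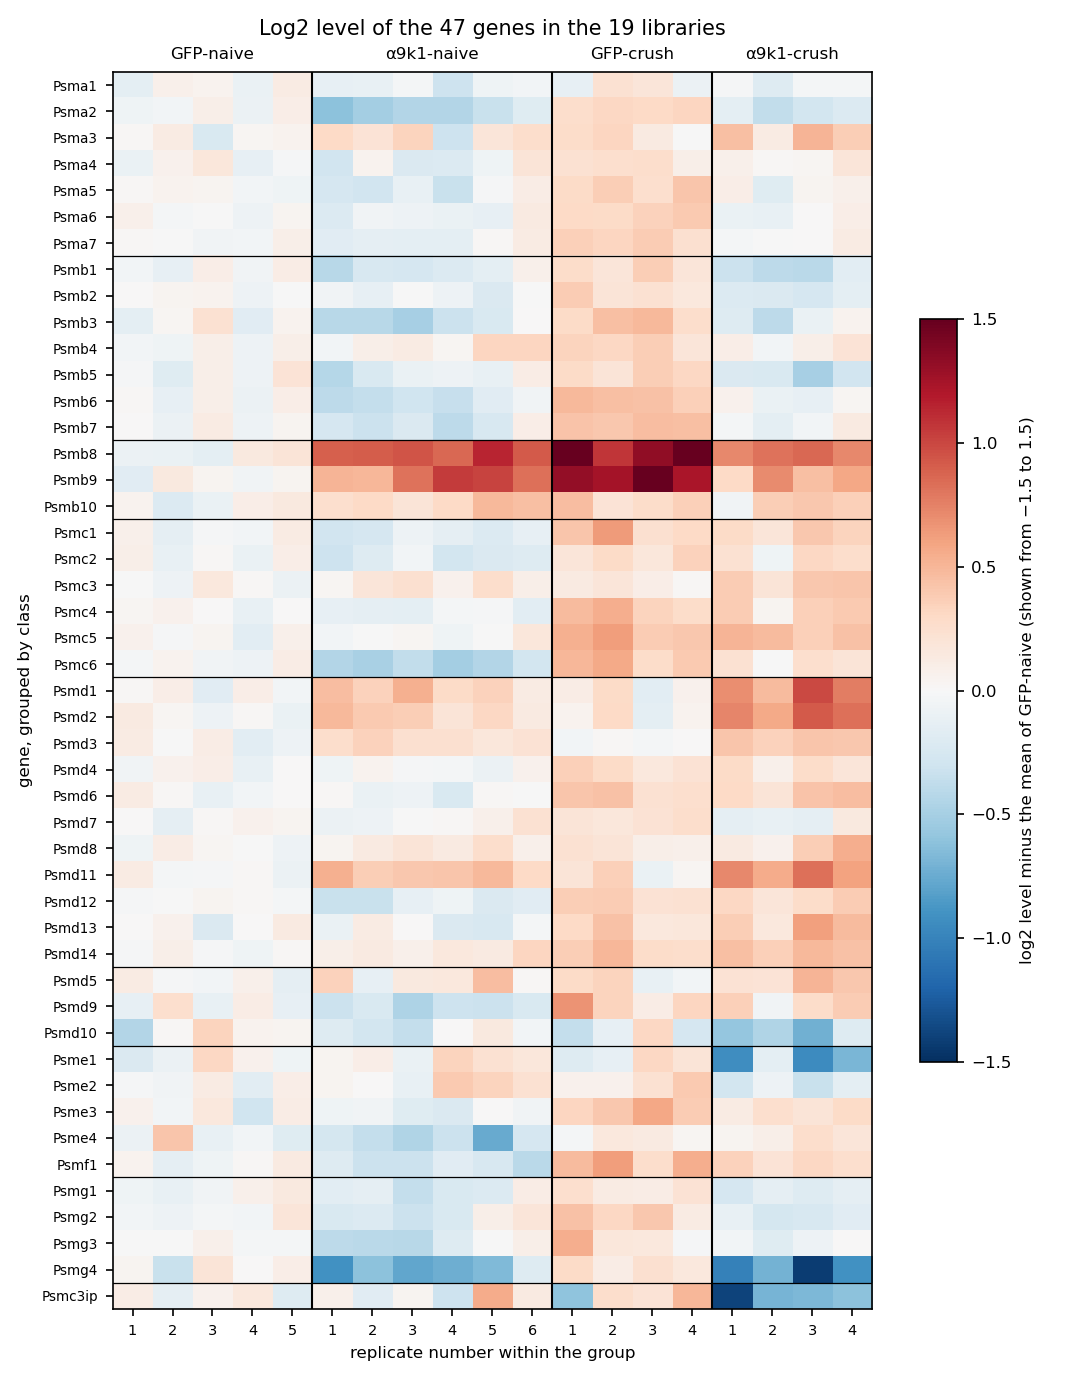
Log2 level of the 47 genes (rows, grouped by class) in the 19 libraries (columns, by group and replicate number), as the difference from the mean of GFP-naive, with colours from -1.5 to 1.5 and values beyond these limits shown in the end colours. Psmb8 and Psmb9 are red in all libraries outside GFP-naive, most core subunits are red in all GFP-crush libraries, and Psmd1, Psmd2 and Psmd11 are red in both α9k1 groups.

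Of the 33 calls in the 5 comparisons, 14 were made again without each of the 19 libraries in turn. These were Psmb8, Psmb9, Psmc1, Psmc4, Psmc5, Psmc6, Psme3 and Psmf1 in GFP-crush against GFP-naive, Psmb8, Psmb9, Psmc6, Psmd9 and Psmf1 in α9k1-naive against GFP-naive, and the interaction of Psmb8. After crush with GFP, Psmb6 and Psmd6 were lost without GFP-naive replicate 2 (highest adjusted p = 0.112 and 0.124), and Psmd14 without GFP-crush replicate 2 (0.142). Psmd12 was lost without GFP-naive replicate 2 or GFP-crush replicates 1 or 2 (up to 0.178), Psma6 without GFP-naive replicates 2 or 3 or GFP-crush replicates 2 or 4 (up to 0.138), and Psmb7 without GFP-naive replicate 2 or GFP-crush replicates 1, 2 or 4 (up to 0.201). Psma7 was lost without GFP-naive replicates 2 or 3, GFP-crush replicates 1 or 2 or α9k1-crush replicate 3 (up to 0.165), and Psmb10 without these or GFP-crush replicate 4 (up to 0.21).

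In α9k1-naive against GFP-naive, Psma2 was lost without GFP-crush replicate 3 (adjusted p = 0.104), Psme2 without GFP-naive replicate 4 (0.189) and Psme4 without GFP-naive replicate 2 (0.129). Psmb10 was lost without GFP-naive replicate 2 or α9k1-naive replicate 6 (up to 0.37), and Psmb4 without GFP-naive replicates 1, 2 or 4 or α9k1-naive replicates 5 or 6 (up to 0.264). Both Psmd3 and Psmd11 were lost without α9k1-naive replicates 4 or 6, GFP-naive replicates 2, 4 or 5, or α9k1-crush replicate 3. Psmd3 was also lost without GFP-crush replicates 2 or 3 (up to 0.267), and Psmd11 without α9k1-naive replicates 1 or 5 or α9k1-crush replicate 1 (up to 0.501). In α9k1-crush against α9k1-naive, Psmd12 was lost without α9k1-naive replicate 4 (0.164) and Psmd9 without α9k1-naive replicates 1, 3 or 4 or GFP-crush replicate 2 (up to 0.151). Psmf1 was lost there without any of 9 libraries, which were GFP-naive replicates 1, 3 and 4, α9k1-naive replicates 1 to 4 and α9k1-crush replicates 1 and 4 (up to 0.192).

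Some members share sequence with other genes. Exons of 14 of the 47 overlap those of another gene in GENCODE M21, and 8 have a gene in the value table with a transcript of at least 95% identity over at least 300 bases, among them Psma3, Psma5, Psmc1 and Psmd11. The levels of these 19 genes in all are uncertain, since unstranded reads could be split. Of the 16 calls after crush with GFP, 12 were among the 28 genes with neither feature, and both immunoproteasome genes with large changes were among the 19. Median log2FCs were 0.22 for the 28 and 0.20 for the 19.

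Other genes of the pathway were counted from lists made by their roles. Of 11 further subunits, assembly and associated factors with values, 3 were called higher after crush with GFP, where 7.39% of all genes were. Among them were Usp14 (0.34), a deubiquitinase of the 19S particle, and Adrm1 (0.31), a ubiquitin receptor. Pomp (0.24, limma, adjusted p = 0.0656), the maturation factor of the core, was called too. Pomp had log2FCs of -0.05 in α9k1-naive against GFP-naive, 0.32 in α9k1-crush against α9k1-naive and 0.02 in α9k1-crush against GFP-crush, none of them called. In the deposited values Pomp ran from 9.21 to 9.49 in α9k1-crush, below the 9.94 to 10.2 of GFP-crush without overlap and within the 9.12 to 9.67 of α9k1-naive. In α9k1-crush AI314180, which encodes the proteasome adaptor ECM29, was called higher against GFP-crush (1.29, adjusted p = 0.0874) and against α9k1-naive (0.79, adjusted p = 0.0828). In α9k1-naive Zfand2a (0.92), an arsenite-induced partner of the 19S particle, was called higher and Shfm1 (-0.31), the small lid subunit, lower.

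Of the 7 genes with values that control subunit transcription, Nfe2l1 encodes NRF1, the factor that induces proteasome genes when proteasome activity is low. Its level was 5.24 to 5.63 in GFP-naive and 4.54 to 5.43 in GFP-crush, which overlap (log2FC -0.60, limma, adjusted p = 0.0351). In this comparison 16 of the 47 genes were called higher, and the part of NRF1 in their levels was not tested. Nfe2l1 was not called in α9k1-naive (-0.08), in α9k1-crush against α9k1-naive (-0.11) or against GFP-crush (0.41). In α9k1-naive Nfe2l2, which encodes NRF2, was called higher (1.0) and Ddi2, the protease that activates NRF1, lower (-0.60). Of the ubiquitin genes, activating enzymes and shuttle factors, 14 had values. After crush with GFP 3 were called higher, led by Uba6 (0.65), and 1 lower, Rad23b (-0.44), where 7.39% and 15.7% of all genes were.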

How the data were processed

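RNA from 5000 to 10000 sorted DRG neurons per sample, per the labels, was made into SMART-Seq v4 libraries. Per the study's methods the authors aligned reads to the mouse genome (mm10) with STAR, dropped alignments split between chromosomes, counted fragments per gene with Salmon, removed genes with low counts, took log2 with a pseudocount and normalised with cqn for gene length and depth (versions not given in the sources used here). The deposited log2 values cover 12629 genes in 19 libraries and run from -0.77 to 16.7. The table of values has no gene names, and rows were named in the order of the deposited gene table: the mean column of that table was recomputed from the same row for 12629 of 12629 genes (tolerance 1e-06), and for 2 genes with rows shifted by 1. The recomputed column is the mean of log2((value + 0.5)/(library sum + 1) × 1000000), although the values are already on a log2 scale. The same table holds the authors' log2 fold changes, p-values and adjusted p-values, which were deposited for 4 comparisons and were not used. The deposited library metrics of Picard and STAR are counts of reads and bases. They also hold fractions of reads and bases, as deposited by the authors. The authors deposited GC and AT dropout as percentages. Coverage biases were deposited by the authors as ratios.

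Groups were taken from the sample titles. One limma fit (limma 3.58.1, R 4.3.3) took all libraries, 4 group means and 3 covariates, the first 3 principal components of 48 scaled metrics (45.9%, 24.1% and 11.5% of their variance, of which 34.5%, 52.2% and 74.5% lay between groups). Batch, a term in the methods, is not in the labels. P-values were adjusted by Benjamini-Hochberg over all genes and calls were made under 0.1. Every adjusted p is from this limma fit unless an exact permutation test is named. The 15 genes described with all values were the catalytic subunits, Psme1 and Psme2, and in each comparison the called genes whose log2FC was among the 3 highest or the 3 lowest, and their deposited means were compared by exact permutation tests without covariates (60 tests). Other pathway genes were named if called and among the 2 largest or 2 smallest of a list, with Nfe2l1 and Pomp in all comparisons. The genes and lists were chosen with earlier results of these data known. The fit was tested on simulated data with 200 changed genes. Transcript similarity was searched with blastn 2.17.0, and promoters were read from RefSeq (GRCm38.p6). The ubiquitin genes are not reported here for α9k1-naive. Counting error cannot be given from normalised values, so depth enters only through the spread between libraries. Alternatives were fits without covariates, with the compared groups only, without the 25% of genes with the lowest mean, with quantile normalisation, median centring, removal of GC content and length trends, array weights, a replicate block, and without each library.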

Additional observations from a re-analysis of the deposited data

Results flagged for a closer look

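In 4 of 60 sets of libraries (15 genes in 4 groups), a library lay apart from the rest of its group by Dixon's test at the 95% level, where about 1 in 20 lies apart by chance. Psmb8 in α9k1-naive replicate 5 was 6.18, where the other 5 libraries lay between 5.90 and 5.99. Psmb7 in α9k1-naive replicate 6 was 8.00, where the other 5 lay between 7.51 and 7.68. This library had the highest mean over the core subunits of its group. In it 49.5% of reads aligned and 2.265% of bases lay in introns. The rest of its group had 51.9% to 54.1% and 1.54% to 1.685%. Psmb10 in α9k1-crush replicate 1 was 6.44, where the other 3 lay between 6.86 and 6.90. Psme4 in GFP-naive replicate 2 was 3.83, where the other 4 lay between 3.23 and 3.38.

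The α9k1 effect differed with crush for 2 of the 47 genes by the interaction term of limma. It was -1.34 for Psmb8 (adjusted p = 0.0272) and -1.13 for Psmb9 (adjusted p = 0.0832). Tap1, their neighbour, had an interaction of -1.26 (adjusted p = 0.0672). For macrophage markers the interaction was below 0 for 10 of 12 genes, with a median of -0.70. It was called only for Cd74 (-2.0, limma, adjusted p = 0.0459). In the deposited values 8 of the 12 had a lower mean in α9k1-crush than in GFP-crush, and 2 of the 12 a lower mean than in α9k1-naive. In the fit their median log2FC was 0.60 against GFP-crush (none called) and 0.79 against α9k1-naive (2 called higher). Their summed log2 level, which follows Cd74 most, was 9.12 to 9.71 in GFP-naive and 10.7 to 11.2 in α9k1-naive. It was 11.3 to 11.9 in GFP-crush and 10.9 to 11.6 in α9k1-crush. The part of macrophages in the result was not tested.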

How the results depend on the processing

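No gene described with all its values and called in a comparison changed sign there under an alternative, but counts of called proteasome genes and medians of their log2FC moved. Without covariates, 8 genes were called higher and 13 lower in α9k1-naive against GFP-naive (7 and 5 with them; median -0.080 against 0.025), 5 higher and 25 lower in α9k1-crush against GFP-crush (0 and 0; -0.213 against -0.131), 29 higher in GFP-crush against GFP-naive (16; 0.267 against 0.209), 21 higher and 6 lower in α9k1-crush against α9k1-naive (3 and 0), and 2 higher and 14 lower in the interaction (0 and 2). The shares of all genes called higher and lower without covariates were 16.5% and 29.5%, 29.6% and 28.3%, 11% and 20.1%, 28.5% and 27.1%, and 23.3% and 16.1% in the same order. Fits of only the 2 groups compared gave 2 lower in α9k1-naive against GFP-naive, 3 higher (median 0.269) in GFP-crush against GFP-naive, and 0 (median 0.284 against 0.133) in α9k1-crush against α9k1-naive, with fewer libraries behind each. In these fits 14% of all genes were called lower in the first, and 2.07% and 0.507% higher in the other two. Median centring gave 32 higher (median 0.348) after crush with GFP, where 14.5% of all genes were, and medians of -0.213 in α9k1-crush against GFP-crush and -0.232 (against -0.103) in the interaction, in which 0.934% of all genes were then called higher and 1.32% lower, against 1.35% and 0.847%. With GC content and length trends removed, the median in α9k1-crush against GFP-crush was -0.049, and 1 gene was called lower after crush with GFP. Quantile normalisation, array weights and the filter on low means moved no count by over 1.5 times and no median by more than 0.0511, the pooled SD between libraries of the mean over the genes. The interaction needs all 4 groups and has no fit with 2. The cause of these shifts was not tested.

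Replicate numbers were shared between groups but did not pair the libraries. Of 25 same-numbered pairs, 4 had correlated deviations over 0.1 (range -0.269 to 0.149, median 0.0204). With the replicate block, 3 genes were called higher in α9k1-naive against GFP-naive (median -0.105), 18 after crush with GFP (14 shared with the 16, median 0.289), and 0 in α9k1-crush against α9k1-naive, where 8.96%, 6.88% and 1.23% of all genes were called higher. In the interaction 0 were called lower, so both calls were lost (Psmb8 -1.38, adjusted p = 0.211; Psmb9 -1.09, 0.341) where all interaction calls fell to 0.15% higher and 0.0554% lower, and the median in α9k1-crush against GFP-crush was -0.223.

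Leaving out each of the 19 libraries gave 3 to 7 genes higher and 4 to 6 lower in α9k1-naive against GFP-naive (medians -0.049 to 0.053), 0 in either direction in α9k1-crush against GFP-crush (-0.183 to -0.024), 9 to 22 higher and 0 to 1 lower in GFP-crush against GFP-naive (0.174 to 0.248), 0 to 3 higher in α9k1-crush against α9k1-naive (0.101 to 0.184), and 1 to 2 lower in the interaction (-0.155 to -0.036). Counts of genes called higher fell to 3 without GFP-naive replicate 2 or 4 and to 4 without α9k1-naive replicate 6 in the first comparison, to 9 without GFP-naive replicate 2 and 10 without GFP-crush replicate 2 in the third, and to 1 without α9k1-naive replicate 1 or 3 and 0 without α9k1-naive replicate 4 in the fourth.

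The covariates share much of their variance with the groups. The batches of the study were not used here. The labels name mouse and the methods name rat, reads were aligned to mouse, and the part of sequence differences in the levels was not tested. Counting error per gene is unknown from normalised values.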
